A study of Sus scrofa with 599 samples.

Results

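H3K27ac, the acetylation of histone H3 at lysine 27, marks active enhancers, the stretches of DNA outside gene starts that raise the transcription of genes nearby. The regions described here are the backfat-only enhancer regions of pigs on a normal diet: the autosomal regions of the normal-diet enhancer table of the upper layer of backfat (ULB, a subcutaneous fat) that shared no base with any enhancer region of the normal-diet tables of the greater omentum (GOM), the mesenteric adipose (MAD) and the retroperitoneal adipose (RAD), which are visceral fats. Of the 19558 ULB regions, 1606 (8.21%) met this rule, 12738 (65.1%) were met by regions of all 3 visceral tables and 5214 (26.7%) by regions of 1 or 2 of them. The members were thus chosen by the H3K27ac calls of these 4 tables, so every H3K27ac value of the normal-diet pigs is given as a description, without a test.

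The samples came from adult female Bama pigs, aged 2 years at the start. NC pigs ate a normal diet. WG (weight gain) pigs were fed for 22 weeks on a diet rich in fat. WL (weight loss) pigs had that diet first and then 12 weeks on 10% of the calories of the normal diet. The authors made 1 enhancer table for each tissue and diet from pooled libraries. The NC tables rested on 3 H3K27ac libraries of ULB, 3 of GOM, 1 of MAD and 2 of RAD, and WG pigs were split by the authors into subgroups of like cell composition, of which group5 and group6 had a ULB table. Gene expression (RNA-seq) and the A-B index, which says from Hi-C contacts whether a bin of 20 kb lies with active (above 0) or inactive (below 0) chromatin, were measured per sample: 5 ULB, 9 GOM, 12 MAD and 12 RAD samples under NC, 10 of each tissue under WL, and 36 to 46 of each tissue under WG. The study took all 4 tissues from each pig, so the tissues of a diet share pigs. These are whole tissues, in which fewer cells of a type and less RNA per cell cannot be told apart. Of the NC ULB samples, only replicate 7 had H3K27ac as well as RNA and Hi-C.

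Subcutaneous and visceral fat arise from different parts of the embryonic mesoderm and keep different sets of developmental transcription factors in the adult. The IRX (Iroquois) homeodomain factors and the ZIC zinc finger factors pattern the embryo along its axes, while WT1, GATA6 and ISL1 are known from the visceral lining and from mesoderm of the trunk cavity. FGF10 is a secreted growth factor and FGFR2 the gene of its main receptor.

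The sequences below are 300 bases, written 5′ to 3′ on the plus strand of Sscrofa11.1, from the backfat-only regions that lay nearest to ZIC1 and ZIC4, IRX2, IRX1 and FGF10, chosen because their genes head the lists of signal and expression below. Capitals mark an AP-1 motif (TGANTCA), and a sequence with no capitals held none of the 11 motifs searched. The window at FGF10 is the middle of the region, and the other 3 were moved off the middle, by up to 3100 bases, to a stretch without annotated exons.
ZIC1 and ZIC4, chr13:87746751-87747050: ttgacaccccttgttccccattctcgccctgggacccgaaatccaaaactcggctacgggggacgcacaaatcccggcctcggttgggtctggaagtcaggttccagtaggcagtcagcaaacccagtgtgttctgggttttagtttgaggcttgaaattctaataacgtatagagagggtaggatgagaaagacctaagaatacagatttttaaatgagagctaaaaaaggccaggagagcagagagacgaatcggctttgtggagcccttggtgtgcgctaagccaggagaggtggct
IRX2, chr16:78309401-78309700: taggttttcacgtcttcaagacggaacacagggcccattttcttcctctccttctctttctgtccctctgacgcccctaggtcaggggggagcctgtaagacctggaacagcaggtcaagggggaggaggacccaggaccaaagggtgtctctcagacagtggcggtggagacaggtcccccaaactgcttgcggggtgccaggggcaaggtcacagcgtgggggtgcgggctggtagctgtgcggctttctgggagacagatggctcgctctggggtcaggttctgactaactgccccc
IRX1, chr16:77696551-77696850: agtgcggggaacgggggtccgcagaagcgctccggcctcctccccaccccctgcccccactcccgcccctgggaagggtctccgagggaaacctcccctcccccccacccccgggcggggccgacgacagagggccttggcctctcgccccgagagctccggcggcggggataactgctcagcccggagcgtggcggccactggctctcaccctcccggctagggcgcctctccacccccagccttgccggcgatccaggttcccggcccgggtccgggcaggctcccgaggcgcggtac
FGF10, chr16:28855151-28855450: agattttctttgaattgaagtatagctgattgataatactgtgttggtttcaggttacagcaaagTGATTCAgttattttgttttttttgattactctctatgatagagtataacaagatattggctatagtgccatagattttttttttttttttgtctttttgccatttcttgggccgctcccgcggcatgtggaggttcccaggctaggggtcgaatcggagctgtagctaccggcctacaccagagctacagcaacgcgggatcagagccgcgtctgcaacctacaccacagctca
The windows at ZIC1, IRX2 and IRX1 had a GC content of 50.7%, 60.7% and 76%, and that at FGF10 one of 43%. In the FGF10 window 83.7% of the bases were soft-masked as repeats in the assembly, and the AP-1 letters stood at bases 66 to 72.

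The backfat-only regions were short and modest in signal. Their median length was 3600 bases (quartiles 2600 and 5000, range 200 to 34000), against 8000 over all NC ULB regions, and they covered 7.38 of the 432 Mb in the table. Their H3K27ac signal was 1.38 times the input at the median (quartiles 1.25 and 1.56), against 1.48 times over all ULB regions, and 52 of them (3.24%) reached 2 times the input, against 14% of all. None was among the 998 super-enhancers that the authors marked in this table. A longer region can meet a visceral region more easily, so the rule itself favours short ones.

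The border of the rule was not sharp. The median distance from a member to the nearest visceral region was 19601 bases, and the smallest was 1 base. A visceral region lay within 1000 bases of 33 members (2.05%) and within the distance over which ROSE joins peaks into 1 region, of 505 (31.4%), while 185 (11.5%) had none within 100 kb. Just outside the rule, 20 other ULB regions shared at most 200 bases with visceral regions, and 281 shared at most 1000.

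Members lay further from genes than other ULB regions did. By their midpoints, 817 (50.9%) were intergenic, 724 (45.1%) intronic and 65 (4.05%) exonic, and over all ULB regions 39.4% were intergenic. Of the 1606 members 81 lay over a protein-coding gene start, and of the 19558 ULB regions 7784 did. A protein-coding gene start of RefSeq lay within 100 kb of 909 members (56.6%), against 78.1% of all ULB regions and 85.4% of those met in all 3 visceral tables. The nearest starts belonged to 845 genes, of which 782 had 1 member, 59 had 2, 2 had 3 and 2 had 4. The 2 genes with 4 members were MME, which encodes the membrane peptidase neprilysin, and SLC28A3, a nucleoside transporter.

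The GC content of members had a median of 41.6% (quartiles 38.8 and 46.3), against 45.4% over all ULB regions. In the middle 300 bases, searched on both strands, TAATTA, the core that many homeodomain factors read, was found in 164 members (10.2%) and in 8.37% of all ULB regions. The AP-1 letters TGANTCA were found in 11.5% of members and 9.78% of all, the C/EBP letters TTGCNNAA in 15.9% and 14%, the forkhead letters TGTTTAC in 4.36% and 4.01%, the GATA letters AGATAAG in 4.23% and 3.60%, the E-box CAGCTG in 15.2% and 17%, and the TEAD letters GGAATG in 14.4% and 14.8%. The T-box letters AGGTGTGA and the longer motifs of the glucocorticoid receptor, PPARG-RXR and NFI were rare, in 14, 10, 2 and 0 of the 1606 members. No motif searched holds another. Motifs rich in A and T are met more often in sequence of low GC, and these shares are a description only.

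Later tables from other pigs show how often a member was called again. In WL pigs 976 of the 1606 members (60.8%) were overlapped by a ULB region, in WG group6 748 (46.6%) and in WG group5 270 (16.8%). Over all NC ULB regions the shares were 77.4%, 68.8% and 54%, and over those with a region of each visceral tissue 79.8%, 73.9% and 65.1%. Among regions at 2 or more times the input the order turned round in WL (71.2% of 52 members, 43.6% of all) and WG group6 (61.5% and 39.3%), but not in WG group5 (15.4% and 29.2%). The 11 visceral tables of WG and WL pigs overlapped between 156 members (9.71%, WG group1 GOM) and 529 (32.9%, WL MAD). Members were therefore found most often in 2 of the 3 later ULB tables. The ULB table of WG group5 held fewer members than the MAD and RAD tables of the same subgroup (355 and 315). It rested on 1 input library and covered the fewest bases of all tables (283 Mb, against 344 in group6 and 497 in WL). The MAD and RAD tables of group5 covered 457 and 306 Mb. The part of coverage in these shares was not tested. GOM held the fewest, at 9.71% to 14.2% of members in its 4 later tables, while those tables overlapped 63.6% to 67.3% of all NC ULB regions. The rule had required absence from NC GOM, the widest NC visceral table (539 Mb, against 416 in MAD and 465 in RAD). Each share comes from 1 pooled table and has no replicate error.

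**Figure D1:**
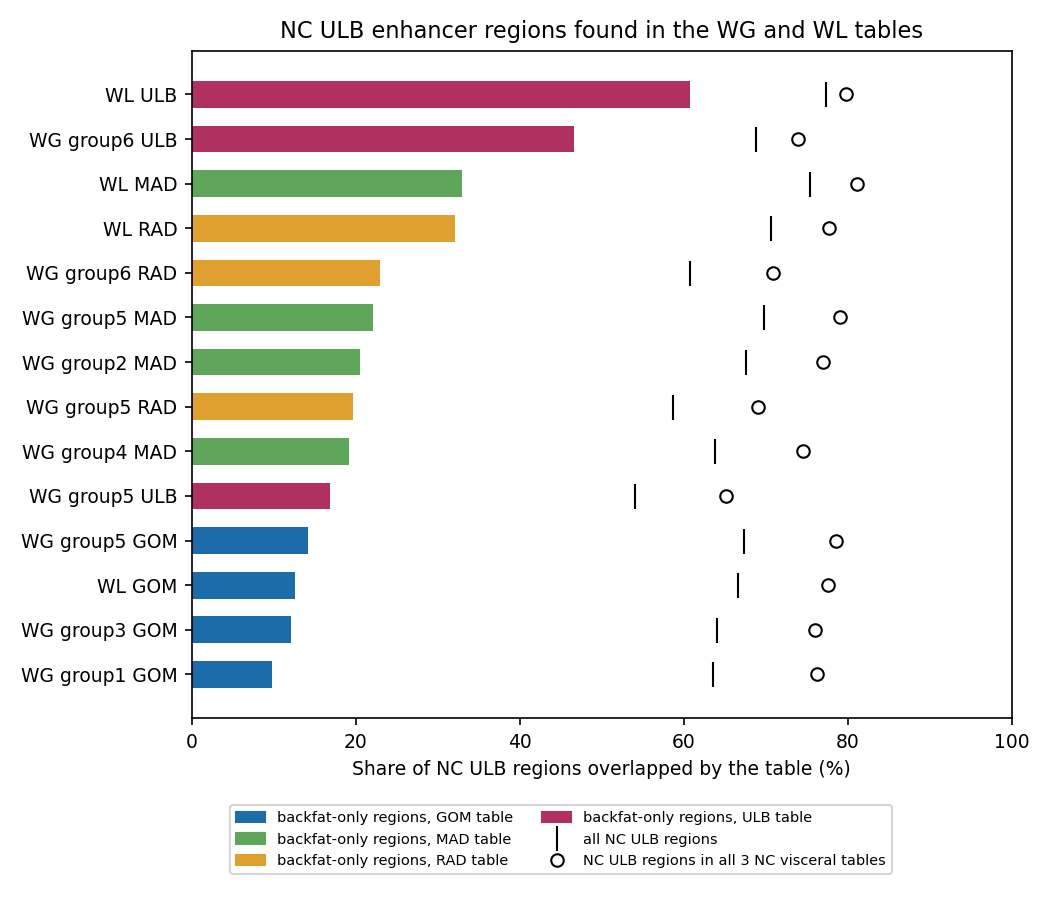
Share of NC ULB regions, in percent, that each of the 14 WG and WL enhancer tables overlapped by at least 1 base. Bars stand for the 1606 backfat-only regions, coloured by the tissue of the table, ticks for all 19558 NC ULB regions and circles for those met in all 3 NC visceral tables. The bars of WL ULB (60.8%) and WG group6 ULB (46.6%) are the longest, and those of the 4 GOM tables (9.71% to 14.2%) the shortest.

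Length moves with these shares. Among regions of 200 to under 2600 bases, WL ULB overlapped 53.8% of members and 36.4% of regions met in all 3 visceral tables. Among regions of 2600 to under 5000 bases it overlapped 57.9% and 44.3%, and among those of 5000 to under 10000 bases 66.8% and 69.7%. Below 5000 bases members were thus found again in WL ULB more often than visceral-shared regions of like length, and above it they were not. Over all NC ULB regions the shares were 50.2% and 57% in the classes below 5000 bases, near those of members. WG group5 ULB overlapped fewer members than visceral-shared regions there, 10.9% against 20% and 13.9% against 25.5%. In WG group6 ULB members (34.4% and 43.6%) stood above visceral-shared regions (31% and 38%) and below all NC ULB regions (38.5% and 45.6%). In WL GOM members were found less often than visceral-shared regions in all length classes, with 10.9% against 38.7% in the shortest. Members were chosen for absence from NC GOM and visceral-shared regions for presence there, so the rule itself favours a gap in this direction.

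Over the 3 later ULB tables, 1116 members (69.5%) were in at least 1 and 188 (11.7%) in all 3. Of all NC ULB regions 81.3% and 48.3% were. In at least 1 of the 11 later visceral tables there were 875 members (54.5%), beside 85.6% of all ULB regions. A total of 377 members (23.5%) were in a later ULB table and in no later visceral table, which held for 2.80% of all ULB regions. In all 3 later ULB tables and in no later visceral one were 18 members (1.12%), beside 0.133% of all ULB regions. In no later table of any tissue were 354 members (22%), beside 11.6% of all ULB regions. Applying the same rule anew in WL pigs gave 1942 ULB-only regions of 25311 (7.67%), which met 312 of the NC members (19.4%). In WG group5 it gave 2003 of 19753 (10.1%), which met 95 members (5.92%).

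Of the 10 members with the most signal above input, the first 3 lay at patterning genes, 4 had no gene start within 100 kb, and the others were nearest to RGS7BP, LGR5 and LOC100511460. The region at ZIC1 and ZIC4 (chr13:87726801-87760800, 34000 bases, spanning exons and the gene starts) had the highest H3K27ac signal above input of all members, at rank 1697 of the NC ULB table, with a signal of 10846 against 5593 in the input. It was also the longest member, and its signal was 1.94 times the input. It was in all 3 later ULB tables, and also in 9 of the 11 later visceral tables. The region over IRX1 (chr16:77686801-77707200, rank 2853) was in all 3 later ULB tables and in 7 visceral ones, and that over IRX2 (chr16:78300801-78319400, rank 3099) in 3 and 5. These 3 regions were thus absent from the NC visceral tables but present in several visceral tables of other pigs. Each of the 3 lay over a gene start.

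Other members kept to ULB in every table. The region at chr4:58214401-58228000 (rank 3914, 2.24 times the input) was in all 3 later ULB tables and in no visceral table, and its nearest gene start, of PKIA, was 335217 bases away. A second region in the same gene-free stretch, chr4:58723601-58739400 (rank 4371), was in 2 later ULB tables and no visceral table. The FGF10 member of 13000 bases (chr16:28848801-28861800), 68848 bases from the gene start, was in all 3 later ULB tables and in no visceral table. Both members near TWIST1, a regulator of mesenchyme that has no expression row here, were in 2 later ULB tables and in no visceral one. At the other end, the members at POU3F3 and LBX1 were in all 11 later visceral tables.

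Members were gathered in places. Of the 1-Mb windows of the autosomes, 5 held 7 or more. The densest was on chromosome 4, from 58 to 59 Mb between PKIA and PEX2, where 9 of the 11 ULB regions were members and no protein-coding gene starts. It was followed by the FGFR2 to PLEKHA1 window of chromosome 14 (8 of 14), the PLK4 to INTU window of chromosome 8 (8 of 17), the SPAG17 to GDAP2 window of chromosome 4 (7 of 13) and the CAPNS2 to IRX5 window of chromosome 6 (7 of 10), which also holds IRX6. In the PKIA to PEX2 window 7 of the 9 members were in a later ULB table and 0 in a later visceral table, and in the SPAG17 to GDAP2 window 6 of 7 and 0. In the PLK4 to INTU window 8 of 8 were in a later ULB table and 6 in a visceral one. By chromosome, the share of ULB regions that were members ran from 5.02% on chromosome 18 to 10.8% on chromosome 16, where IRX1, IRX2 and FGF10 lie.

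Hi-C was not used by the rule, and the A-B index was higher in ULB in 4 of these 5 windows. In the PKIA to PEX2 window the index averaged -2.68 ± 0.34 (SD, n = 5) in NC ULB, -4.17 ± 0.22 (n = 9) in GOM, -3.93 ± 0.23 (n = 12) in MAD and -3.92 ± 0.43 (n = 12) in RAD. ULB stood above GOM by 1.49 (exact permutation test, two-sided, adjusted p = 0.0015 over the 15 window comparisons), above MAD by 1.25 (exact permutation test, adjusted p = 0.00121) and above RAD by 1.24 (exact permutation test, adjusted p = 0.0015). All 5 ULB samples lay above every GOM and MAD sample, and the lowest ULB sample (-3.13) lay below the highest RAD sample (-3.04). The window was inactive in every tissue, so it differed by degree.

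In the SPAG17 to GDAP2 window ULB averaged -1.23 ± 0.33 (SD, n = 5), while GOM averaged -3.74 ± 0.15, MAD -3.04 ± 0.40 and RAD -2.87 ± 0.62. These were the widest gaps of the 5 windows (2.51, 1.81 and 1.64, exact permutation test, adjusted p = 0.0015, 0.00121 and 0.0015). In the PLK4 to INTU window ULB was on the active side, at 0.748 ± 0.229 (n = 5), while GOM, MAD and RAD averaged -0.766, -0.31 and -0.44, with no overlap between ULB and any of them (exact permutation test, adjusted p = 0.0015, 0.00121 and 0.00121). In the CAPNS2 to IRX5 window ULB averaged -0.368 ± 0.437 (n = 5), above GOM by 1.83, MAD by 0.932 and RAD by 0.628 (exact permutation test, adjusted p = 0.0015, 0.00309 and 0.0287), and it overlapped MAD and RAD. In the FGFR2 to PLEKHA1 window ULB (0.807 ± 0.365) did not pass the test against GOM, MAD or RAD, with differences of 0.215, 0.224 and 0.1 (exact permutation test, n = 5 against 9, 12 and 12, adjusted p = 0.254, 0.174 and 0.602). The windows were chosen for their members, not for their index. In WG and WL pigs the ULB mean was again the highest of the 4 tissues in all 5 windows.

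**Figure D2:**
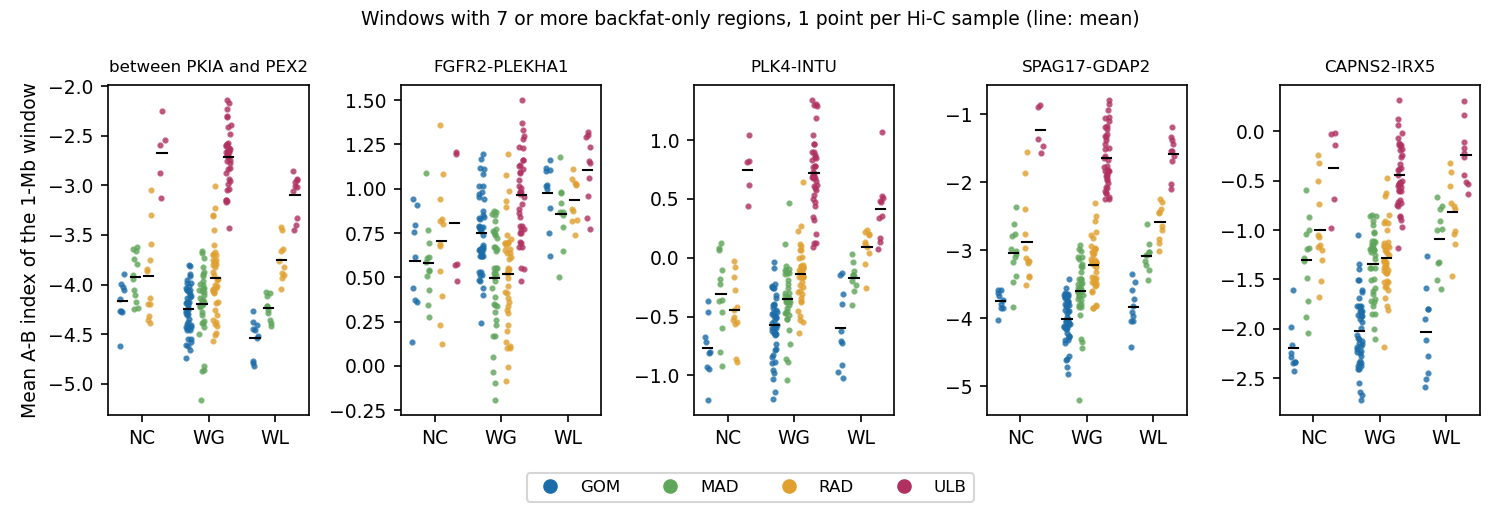
Mean A-B index of the 5 windows of 1 Mb with 7 or more backfat-only regions, 1 point per Hi-C sample, by diet (x axis) and tissue (colour), with a line at each group's mean and a separate y axis for each window. Under NC the ULB samples sit above all GOM samples in every window but FGFR2-PLEKHA1, where the 4 tissues overlap.

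Over all bins that held a member, the index pointed the same way. Of 1947 such bins, 583 (29.9%) had a higher index in NC ULB than in NC GOM and 56 a lower one, by limma with 0.05 as the limit of the Benjamini-Hochberg adjusted p over all bins and 0.75 as that of the difference. Of all 113298 bins tested, 11% were higher and 9.44% lower. Against NC MAD 316 member bins (16.2%) were higher and 38 lower, where 4.57% and 6.63% of all bins were, and against NC RAD 390 (20.0%) were higher and 73 lower, where 8.08% and 6.83% were. Of the 31488 bins of regions met in all 3 visceral tables, 3507, 1683 (5.34%) and 1963 (6.23%) were higher. Leaving out ULB replicate 5 took the lower bins from 56 to 36 against GOM and from 38 to 19 against MAD. With the replicate number as a block, limma called 0 member bins and 0 of all bins against NC MAD (560 member bins at an unadjusted p below 0.05), and 190 (9.76%) higher against NC RAD beside 2.36% of all bins. The block fits kept only same-numbered samples, 5 pairs in each of these comparisons.

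The same held in the other pigs. In WG 573 (29.4%) of the member bins were higher in ULB than in GOM, 437 (22.4%) than in MAD and 358 (18.4%) than in RAD, beside 11.9%, 8.68% and 8.80% of all bins. In WL 524 (26.9%), 281 (14.4%) and 119 (6.11%) were higher, beside 10.2%, 3.83% and 1.68%. Lower bins numbered 52, 27 and 19 in WG and 60, 14 and 32 in WL, beside 6.97%, 3.39% and 2.47% and 9.21%, 3.84% and 4.03% of all bins. The median index of the member bins, taken per sample, was 0.0213 ± 0.208 (SD, n = 5) in NC ULB, -0.447 ± 0.146 (n = 9) in GOM, -0.174 ± 0.138 (n = 12) in MAD and -0.130 ± 0.142 (n = 12) in RAD. Members thus lay near the border of active and inactive chromatin, but so did the median of all bins. That median averaged -0.364 in NC ULB, -0.333 in GOM, -0.236 in MAD and -0.267 in RAD. Bins of regions shared with all 3 visceral tables had medians of 2.49 to 2.57. For member bins the ULB samples (-0.213 to 0.257) lay above all GOM samples (-0.696 to -0.258) and overlapped MAD and RAD.

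**Figure D3:**
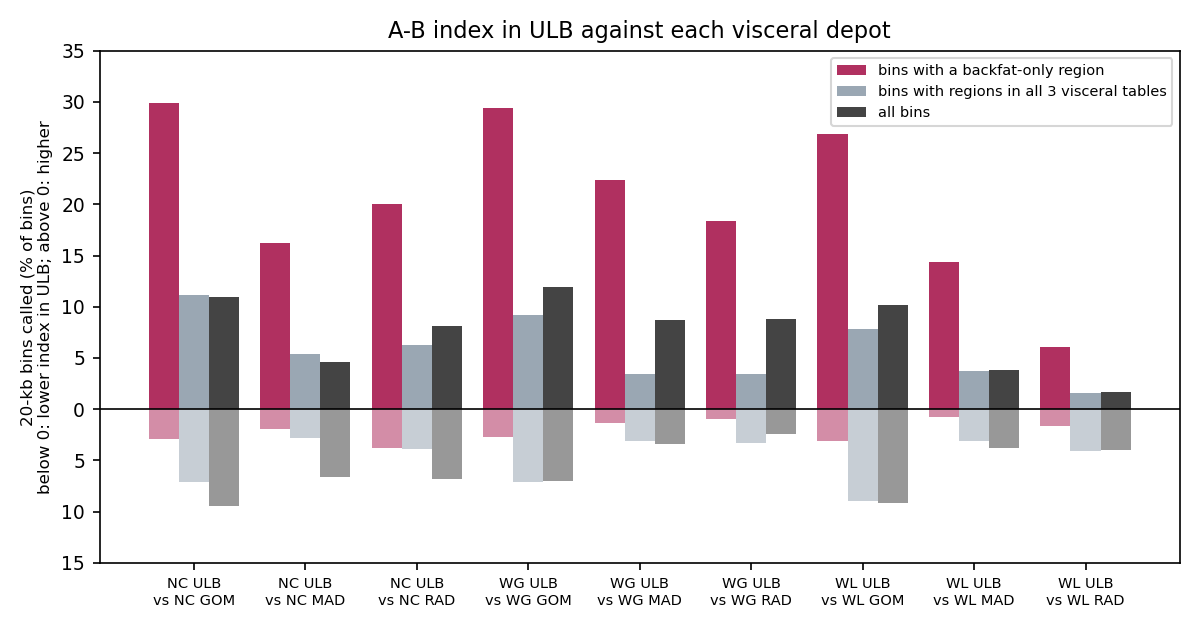
Share of bins of 20 kb, in percent, whose A-B index was called higher (above 0) or lower (below 0, paler) in ULB than in each visceral tissue, for the 1947 bins with a backfat-only region, bins with regions met in all 3 visceral tables and all 113298 bins. In each of the 9 comparisons the bins with a backfat-only region have the largest share higher in ULB, from 6.11% (WL RAD) to 29.9% (NC GOM).

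The index is also given at single members named above. Over the 3 bins of the ZIC1 and ZIC4 region it averaged -0.775 ± 0.507 (SD, n = 5) in NC ULB and -2.82 ± 0.29, -2.43 ± 0.52 and -2.80 ± 0.39 in GOM, MAD and RAD, and a bin of it was called higher in ULB in all 9 comparisons. Over the FGF10 member of 13000 bases the index was -0.993 ± 0.295 in ULB and -3.15, -2.71 and -2.37 in GOM, MAD and RAD, again with a call in all 9. At IRX1 it was -0.0667 ± 0.197 against -1.36, -1.16 and -1.33, with a call in 8 of the 9. At IRX2 it was -0.834 ± 0.603 against -1.76, -1.73 and -1.73, with a call in 7 of the 9. No bin was called higher in ULB in any of the 9 comparisons at the members near POU3F3, MYOC, PARM1, HMCN1, ISL1, TP63, LBX1, TRIM33, TWIST2 or SLC28A3.

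Expression was the second measure that the rule did not use. Of the 845 nearest genes 662 had an expression row, and between 489 and 515 of these passed the filter on low values (above 0.5 TPM in 80% of the samples of a group) in a given comparison. Counts of genes that passed are given beside the same share of all genes tested, since a gene can pass through the tissue where it is high. Against NC GOM, 100 of 504 genes (19.8%) were higher in ULB and 40 (7.94%) lower, by edgeR's quasi-likelihood test with 0.05 as the limit of the Benjamini-Hochberg adjusted p and more than 1.5 times as the limit of the fold, where 13.3% and 12.1% of all 14316 genes were. Against NC MAD 63 of 503 (12.5%) were higher and 15 (2.98%) lower, where 4.57% and 3.17% of all were. Against NC RAD 46 of 502 (9.16%) were higher and 6 (1.20%) lower, where 2.92% and 1.40% of all were. Genes near regions met in all 3 visceral tables gave 14.3%, 4.62% and 2.72% higher. Without the filter, 110 of 659 (16.7%), 56 of 662 (8.46%) and 43 of 660 (6.52%) near genes were higher, beside 10.9%, 3.02% and 2.09% of all genes. Leaving out ULB replicate 7 took the lower genes from 40 to 26 against GOM and from 15 to 7 against MAD.

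In WG pigs 83 of 501 near genes (16.6%) were higher in ULB than in GOM, 76 of 494 (15.4%) than in MAD and 64 of 489 (13.1%) than in RAD, beside 7.59%, 6.25% and 5.20% of all genes, and 33, 30 and 16 were lower, beside 10.3%, 8.18% and 4.07%. In WL pigs 81 of 513 (15.8%), 71 of 515 (13.8%) and 49 of 503 (9.74%) were higher, beside 6.16%, 5.54% and 2.29%, and 31, 31 and 10 lower, beside 9.81%, 8.89% and 2.05%. The median log2 fold change of near genes was small, from 0.03 to 0.14 over the 9 comparisons, and 297 of them were called in none. Most near genes thus did not pass the test, and the excess over all genes rested on a minority.

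**Figure D4:**
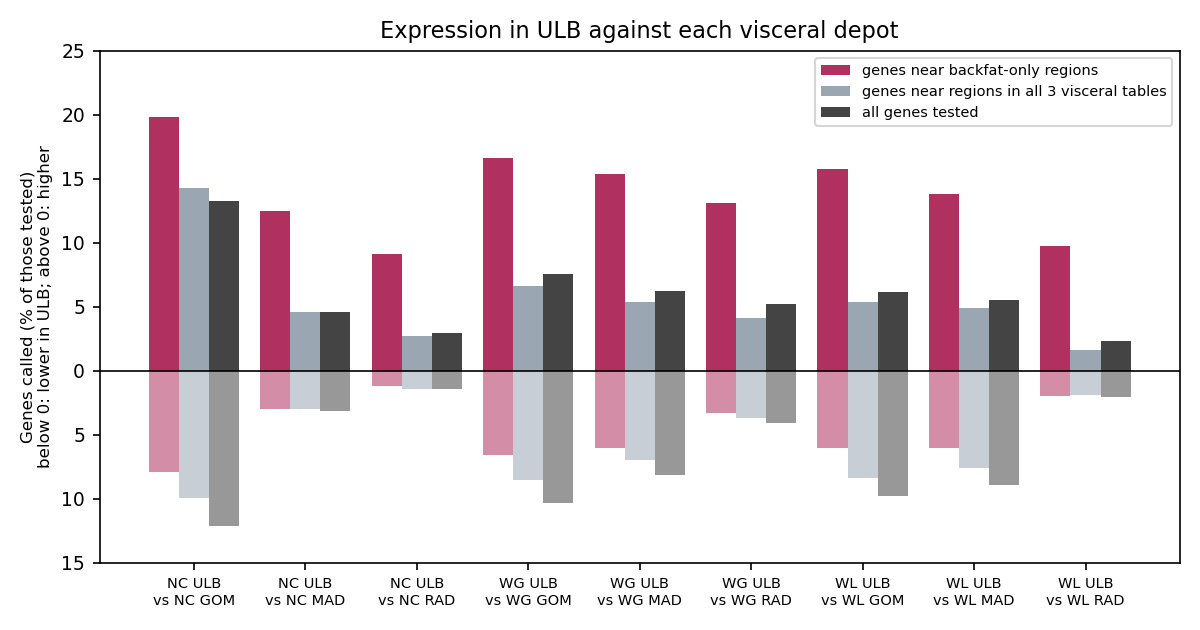
Share of genes, in percent of those tested, that were called higher (above 0) or lower (below 0, paler) in ULB than in each visceral tissue. Genes near backfat-only regions have the largest share called higher in each of the 9 comparisons, from 9.16% (NC RAD) to 19.8% (NC GOM), beside 2.29% to 13.3% of all genes.

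Genes with several members were called higher more often. Genes with a close member were also called higher more often, and against MAD they were called lower more often too. With 2 or more members, 17 of 41 genes (41.5%) were higher than in NC GOM, 11 of 41 (26.8%) than in MAD and 10 of 41 (24.4%) than in RAD, and with 1 member 17.9%, 11.3% and 7.81%. Within 20 kb of the gene start 28%, 19.8% and 19.1% were higher, and from 20 to 100 kb 18.6%, 11.4% and 8.08%. Lower were 5.38%, 7.29% and 2.13% of the close genes and 8.49%, 2.14% and 0.95% of the further ones, beside 12.1%, 3.17% and 1.40% of all genes. Against RAD these were only 2 of 94 close genes and 4 of 421 further ones. Against MAD the share of lower genes was also larger among the close ones in WG (13.5% and 4.58%) and WL (14.6% and 4.01%). These differences between classes of genes were not tested.

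Of the 482 near genes tested in all 9 comparisons, 19 were higher in ULB in every one and 2 were lower, while over all 12954 genes tested in all 9 the shares were 0.517% and 0.247%. Besides the genes described below, the 19 were ADCY2, EDIL3, KCNE4, MLIP, MSX2, P4HA3, SEMA3E and VEPH1. With the replicate block POU3F3 no longer passed against NC RAD, and HMCN1, 1 of the 2 lower genes, no longer passed against NC MAD in 4 of the 5 fits that left out 1 ULB sample.

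Patterning factors headed them. ZIC1 was at 22.7, 14.4, 22, 12 and 26.9 TPM in the 5 NC ULB samples, and at 0 to 0.4 TPM in GOM (median 0), 0 to 0.242 in MAD (median 0) and 0 to 0.0943 in RAD (median 0). It was all but absent from the visceral samples, with no overlap, and its log2 fold change was 8.46 ± 0.58 (SE, edgeR adjusted p = 3.21e-08) against GOM. In WL pigs no MAD or RAD library held a count of ZIC1, so that ULB was at least 671-fold and 673-fold higher (CPM, against a floor of 3 counts over the group). ZIC4, its neighbour on the opposite strand, was at 4.94, 2.32, 5.54, 4.09 and 7.22 TPM in NC ULB and at most 0.281 TPM in any NC visceral sample.

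IRX2 was at 5.77, 5.98, 6.89, 5.28 and 6.88 TPM in NC ULB, and at most 0.176, 0.101 and 0.146 TPM in GOM, MAD and RAD. Its log2 fold change was 6.62 ± 0.59, 7.91 ± 0.53 and 7.39 ± 0.53 (SE, edgeR adjusted p = 6.38e-07, 1.20e-08 and 3.93e-08). IRX1 was at 10.5, 10.4, 11.7, 8.75 and 14.7 TPM in NC ULB, with medians of 0.0729 (0 to 0.257) in GOM, 0.203 (0 to 0.944) in MAD and 0.321 (0 to 5.81) in RAD. No NC visceral sample reached the lowest ULB sample, although RAD came nearest, with a log2 difference of 3.30 ± 0.79 (SE, edgeR adjusted p = 0.0195).

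The genes of the IRX3 and IRX5 cluster on chromosome 6 followed with smaller differences. IRX5 was at 3.93, 5.82, 5.48, 2.96 and 5.21 TPM in NC ULB and at most 2.27 TPM in the visceral samples, and it was higher in all 9 comparisons. IRX3 was at 14.1, 14.8, 15.6, 15.4 and 15.5 TPM in ULB, and was higher than in GOM (log2 4.33 ± 0.49 SE, edgeR adjusted p = 8.65e-06) and MAD (1.80 ± 0.30, adjusted p = 0.000634) but did not pass the test against RAD (1.42 ± 0.60, adjusted p = 0.222), where 1 sample reached 27.7 TPM. IRX6, with 2 members, stayed at or below 0.382 TPM in every NC sample. POU3F3, a neural POU factor, was at 2.08, 2.17, 3.99, 1.72 and 0 TPM in NC ULB. The sample at 0 overlapped the visceral ones.

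Secreted factors and their receptors came next. FGF10 was at 125, 77.1, 34.3, 43.5 and 79.3 TPM in NC ULB, with medians of 0.810 (0.227 to 1.54) in GOM, 0.777 (0.0281 to 1.56) in MAD and 8.44 (3.29 to 27) in RAD. The lowest ULB sample stood above the highest visceral one, and the log2 fold changes were 6.36 ± 0.33, 6.37 ± 0.45 and 2.82 ± 0.37 (SE, edgeR adjusted p = 1.41e-09, 2.33e-08 and 7.29e-05). Its receptor gene FGFR2, with 3 members, was at 13.5, 14, 12.4, 12.4 and 17.5 TPM in NC ULB. It was higher than in GOM (log2 2.71 ± 0.31 SE, edgeR adjusted p = 8.30e-06) and RAD (2.64 ± 0.34, adjusted p = 6.96e-05), but against MAD (1.52 ± 0.61) the adjusted p was 0.140, and 1 MAD sample reached 21 TPM beside a median of 2.1.

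MYOC, which encodes the secreted glycoprotein myocilin, was the most abundant of the named genes, at 729, 485, 1052, 355 and 837 TPM in NC ULB. Its medians were 30.2 TPM (19.6 to 93.2) in GOM, 38.5 (21.7 to 122) in MAD and 109 (47.3 to 250) in RAD, with no overlap with ULB. The log2 fold changes were 4.14 ± 0.32, 3.78 ± 0.30 and 2.42 ± 0.27 (SE, edgeR adjusted p = 1.67e-07, 1.31e-07 and 1.54e-05). Its member (3200 bases, 24165 bases from the gene start) was weak, at 1.12 times the input and rank 19387, so that a high gene could lie near a member of low signal. THBS4, a matrix thrombospondin, was at 5.96, 35.6, 29.1, 33.5 and 38.7 TPM in NC ULB, and its lowest sample fell below the highest of MAD (17 TPM). FBLN7, a fibulin of the matrix, was at 7.81, 27.1, 12.8, 10.3 and 19.8 TPM, above every NC visceral sample (at most 3.07). RIMS3, a protein of the presynaptic active zone, was at 1.97, 0.711, 3.74, 1.19 and 2.96 TPM in NC ULB and at most 0.348 in the visceral samples.

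MME, with 4 members, was at 39.8, 14.1, 42, 42.6 and 16.2 TPM in NC ULB, above every NC visceral sample (at most 9.36). It was higher than in GOM, MAD and RAD by 3.06 ± 0.35, 3.53 ± 0.36 and 2.96 ± 0.47 on the log2 scale (SE, edgeR adjusted p = 9.86e-06, 2.93e-06 and 0.000587). In WL pigs the difference from MAD was -0.32 ± 0.67 (adjusted p = 0.777), with 15 ± 21.5 TPM (SD, n = 10) in MAD and 13.7 ± 7.55 in ULB. Only 1 of its 4 members was in a later ULB table. SLC28A3, also with 4 members, stayed at or below 0.5 TPM in every NC sample. RGS7BP, which anchors a regulator of G protein signalling, was at 7.86, 10.1, 6.50, 2.94 and 9.94 TPM in NC ULB, above all NC visceral samples (at most 2.90). DPH6, an enzyme of diphthamide synthesis with 2 members, was higher in ULB than in GOM, MAD and RAD under NC (log2 0.70, 0.66 and 0.80, edgeR adjusted p = 0.0478, 0.0328 and 0.0444) and below the fold limit in WG and WL. CDH20, a cadherin with 2 members, was higher than in MAD (log2 3.23 ± 0.74 SE, edgeR adjusted p = 0.00963) but not past the test against GOM (-0.09 ± 0.50) or RAD (2.03 ± 0.59, adjusted p = 0.0553), and it was higher in all 3 comparisons in WG (log2 1.09, 4.93 and 1.12) and all 3 in WL (1.03, 4.24 and 1.54). TRIM33, a ubiquitin ligase with 2 members, was at 33.4 ± 3.16 TPM (SD, n = 5) in ULB and at 30.7 to 34.9 on average elsewhere, and was called in none of the 9. The members near TBX20, LBX1, TP63 and COL17A1 lay by genes at or below 2.46 TPM in every NC sample, of which COL17A1 was higher than in MAD (log2 2.03 ± 0.40 SE, edgeR adjusted p = 0.00323).

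Some members lay near genes that were lower in ULB. LGR5, a receptor for R-spondins known from stem cells, was at 0.124 to 0.876 TPM in NC ULB (median 0.420) and at 2.04 to 11.4 in GOM (median 5.25), without overlap, at a log2 difference of -3.76 ± 0.47 (SE, edgeR adjusted p = 2.34e-05). Its member (chr5:35390001-35416600, 46657 bases from the gene start, in an intron of TSPAN8) was among the 10 with the most signal and was in no later visceral table. ISL1, a homeodomain factor, was at 0 to 0.547 TPM in ULB and 2.01 to 12.5 in GOM (log2 -5.08 ± 0.66 SE, edgeR adjusted p = 3.30e-05). In MAD and RAD both genes stayed at or below 0.592 TPM. ANK3, an ankyrin with 3 members, was lower than in GOM (-1.23 ± 0.42 SE, edgeR adjusted p = 0.0364) and MAD (-2.20 ± 0.54, adjusted p = 0.0151). PARM1 and HMCN1, the 2 genes lower in all 9 comparisons, were at 15.6 ± 4.35 and 12.1 ± 3.55 TPM (SD, n = 5) in NC ULB and at 41 to 53.1 and 23.1 to 33.6 on average in the visceral tissues.

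**Figure D5:**
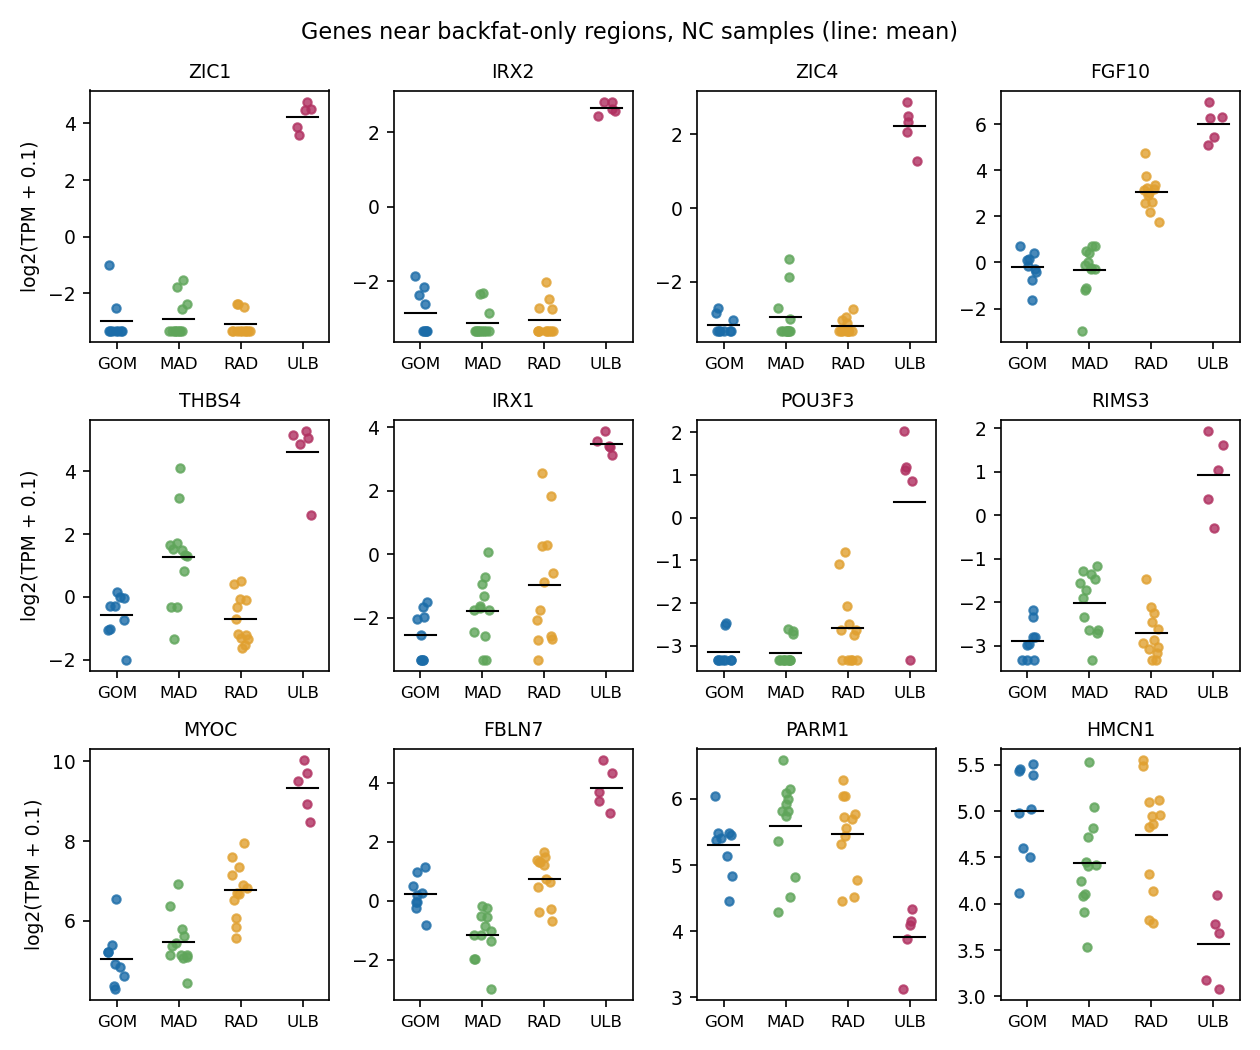
Expression of the 10 genes highest and the 2 lowest in ULB over all 9 comparisons, as log2(TPM + 0.1) on the y axis, 1 point per NC sample (5 ULB, 9 GOM, 12 MAD, 12 RAD) with a line at each mean. ULB stands above the visceral samples without overlap for ZIC1, IRX2, ZIC4, FGF10, IRX1, RIMS3, MYOC and FBLN7, while POU3F3 and THBS4 each have 1 low ULB sample.

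Of the 20 listed patterning transcription factors of subcutaneous fat, 17 had an expression row and 7 were the nearest gene of a member (IRX1, IRX2, IRX3, IRX5, LBX1, TWIST1 and TWIST2, of which both TWIST genes had no row). Of those tested, 12 of 13 were higher in NC ULB than in GOM (among them EN1, SHOX2, SIM1 and PRRX1), 10 of 13 than in MAD and 6 of 14 than in RAD, where HOXC10 was lower. The median log2 fold changes were 3.66, 2.07 and 1.12, beside -0.02, -0.01 and -0.02 over all genes tested. Of the 12 listed factors of the visceral lineage, 8 of 9 tested were lower in ULB than in GOM, 5 of 6 than in MAD and 2 of 4 than in RAD (WT1 and MEIS1), with median log2 fold changes of -5.37, -2.92 and -1.18. Both lists were drawn up with earlier results of these data known.

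Markers of cell types moved with the comparison too. Summed TPM of the 10 adipocyte markers was 14087 to 19927 in NC ULB, 5822 to 11612 in GOM, 4734 to 24937 in MAD and 15552 to 37354 in RAD, and 8 of 10 were higher in ULB than in GOM, 1 than in MAD and 1 than in RAD. The 6 fibroblast and progenitor markers summed to 3076 to 5100 in ULB, 1493 to 3724 in GOM, 1244 to 2428 in MAD and 1035 to 3198 in RAD, with COL1A1 higher and PI16 lower in ULB each time. DCN was also higher in ULB than in MAD and RAD. The median log2 fold changes of these 6 were 0.0694, 0.265 and 0.389 (GOM, MAD and RAD). In WG they were -0.38, -0.32 and -0.147, with 3, 2 and 1 of the 6 lower in ULB. In WL they were -0.387, 0.0411 and -0.0257, with 2 lower each time. COL1A1 was the 1 marker higher in each WG and WL comparison. Of the 9 mesothelial markers 3 had a row, and they summed to 2.31 to 24.1 in ULB and 36.7 to 169 in GOM, with 2 of 3 lower. Of the macrophage and lymphocyte markers 2 of 5 and 2 of 3 were lower than in GOM. In WL pigs all 5 lymphocyte markers tested were lower in ULB than in MAD (median log2 -3.20). Against GOM 7 of 10 adipocyte markers were higher in WL ULB, but in WG only 1 of 10 was, LEP (median log2 0.208). In WG pigs 3 of 4 lymphocyte markers were lower than in MAD and 3 of 10 adipocyte markers lower than in RAD. The lymphocyte markers summed to 35.5 to 711 TPM in WL MAD (median 47.9) and 22.7 to 36.4 in WL ULB (median 25.5). In WG they summed to 14.2 to 358 in MAD (median 34.9) and 18.5 to 45.4 in ULB (median 27.3). The medians thus differed far less than the highest MAD samples did. Under NC the endothelial markers summed to 431 to 586 in ULB and 375 to 601 in GOM, and of 4 tested TEK was lower than in MAD. The skeletal muscle markers stayed at or below 3.4 in ULB and reached 123 in 1 MAD sample. The epidermal markers summed to 4.73 to 9.33 in ULB and 9.25 to 51.2 in GOM. Of the 3 tested, DSP was lower in ULB than in GOM and COL17A1 higher than in MAD. The part of cell composition in the counts above was not tested.

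The 236 RNA libraries held 3.34 to 22.9 M estimated counts (median 16.8 M), and the 5 of NC ULB 8.23 to 22.9 M. In 40 libraries less than 88% of the TPM fell on protein-coding genes, of which 7 were among the 9 of NC GOM and 2 among the 5 of NC ULB. With a term for these libraries every count of near genes stayed within 1.5 times its value.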

How the data were processed

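ChIP-seq of H3K27ac, RNA-seq and Hi-C were made from 4 fat tissues of pigs on 3 diets. For the enhancer tables the authors aligned reads with BWA 0.7.15, filtered them with SAMtools 1.3.1, called peaks with SICER on pooled libraries, kept peaks found in 50% of the replicates and joined them with ROSE, leaving out peaks within 2000 bases of gene starts. The deposited enhancer tables give the ChIP and input signal of each joined region, and a region can still span a gene start after joining. For RNA the authors deposited estimated counts and TPM per gene from kallisto 0.43.0 on Sscrofa11.1. The A-B index was deposited by the authors as a score per bin of 20 kb. In the count, TPM and index files alike, 9 columns matched no sample and were not used.

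Overlaps of at least 1 base were taken with bedtools 2.31.1. Genes were assigned by the nearest RefSeq protein-coding start within 100 kb, and symbols joined 13070 of 18725 RefSeq genes (69.8%) to an expression row. Estimated counts were rounded and tested with edgeR 4.0.16 (TMM, quasi-likelihood, only the 2 tissues of a comparison), and the index with limma 3.58.1, both in R 4.3.3. Exact permutation tests were run with scipy 1.17.1. The edgeR, limma and overlap steps were tested on simulated data. The members, gene lists and tests were chosen with earlier results of these data known. Named were listed marker genes nearest to a member, the genes of the 10 members with the most signal above input, the 10 genes with the most members, and, of the genes called one way in all 9 comparisons, the 10 highest and the 5 lowest. The study took all 4 tissues from each carcass, so tissues of a diet share pigs and replicates of a tissue are separate pigs, but the labels do not say that a replicate number marks a pig. Same-numbered RNA samples had correlations of deviations over 0.1 in all 30 pairs of WG ULB and WG MAD, in 37 of 38 with WG GOM and in 32 of 33 with WG RAD. The main fits did not use this pairing in any comparison, and the replicate block was run only as an alternative. In the 6 other RNA comparisons and the 9 of the A-B index not all pairs passed. Counting error alone is covered by the floor of 3 counts. Sequences of other members are not reported here.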

Additional observations from a re-analysis of the deposited data

Results flagged for a closer look

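Of 53 groups of the genes plotted, tested for a sample far from the rest by Dixon's ratio, 6 had one, and chance gives about 1 in 20. IRX1 reached 2.5 TPM in 1 WL MAD sample (next 1.11), ZIC1 37.5 TPM in 1 WL ULB sample (next 21.6), FGF10 14.8 TPM in 1 WL RAD sample (next 9.42) and THBS4 4.8 TPM in 1 WL MAD sample (next 2.59). RIMS3 reached 0.678 TPM in 1 WL RAD sample (next 0.112), and MYOC 93.2 TPM in 1 NC GOM sample (next 42.3).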

How the results depend on the processing

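Of the counts and shares under the alternatives, 188 stayed near their value and 46 moved. A count was near if within 1.5 times its value, and a share if within the 95% confidence interval of the main share. Direction was not part of this check. The causes were not tested. Counting a region as shared only when 50% of it was covered gave 3061 backfat-only regions, and keeping regions at 2 times the input gave 52. With 50% of a region covered, the shares found again in ULB were 10.5% (WG group5), 40.8% (WG group6) and 53.1% (WL), and among the 52 regions 15.4% (WG group5), 61.5% (WG group6) and 71.2% (WL). At 2 times the input the shares of all NC ULB regions were 29.2%, 39.3% and 43.6%, so that members were found again more often than all regions in group6 and WL, the reverse of the order without this limit. With gene starts within 50 kb fewer genes were tested. Genes higher and lower then numbered 63 and 25 of 321 (NC GOM) and 53 and 20 of 317 (WG GOM). They numbered 41 and 10 of 310 (WG RAD) and 53 and 20 of 329 (WL GOM), with 5 of 321 lower in WL RAD. Against NC GOM the shares were 19.6% and 7.79%, near the 19.8% and 7.94% of the 504 genes within 100 kb. Of all genes tested against NC GOM 13.3% and 12.1% were higher and lower. DESeq2 gave 24 lower against NC MAD (4.77%, all genes 5.28%) and 10 against NC RAD (1.99%, all 2.53%). Without the filter 52 were lower in WG MAD (7.85%, all 9.1%), 100 higher in WG RAD (15.1%, all 6.2%) and 48 lower in WL MAD (7.26%, all 7.58%). Bins called at a difference of 0.5 numbered 886 higher and 96 lower (WG GOM), 670 and 78 (WG MAD), 614 and 89 (WG RAD), 431 and 38 (WL MAD) and 185 and 76 (WL RAD), with 105 lower in WL GOM. At that limit the share of all bins called higher was 22.9%, 19.2% and 20% in WG and 15.2%, 7.13% and 2.89% in WL (GOM, MAD and RAD). Quantile normalization gave 232 higher in WG RAD (11.9%, all bins 3.22%) and 188 in WL RAD (9.66%, all bins 2.85%).

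With the replicate block, 51 genes were higher and 12 lower against NC GOM (4.58% and 4.3% of all genes), and 28 and 3 against NC RAD (1.41% and 0.611% of all genes). The block fits left out samples without a partner of the same number, keeping 4 pairs against NC GOM and 5 against NC MAD and NC RAD. Blocking and the loss of samples cannot be told apart in these counts. For bins, limma with the replicate block gave 190 and 19 against NC RAD and 0 and 0 against NC MAD, where 560 of 1947 bins had an unadjusted p below 0.05. In NC the numbers were not shown to pair the samples. In WG ULB against WG MAD, where they did, the block changed neither count of near genes, higher or lower, by over 1.5 times.

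Leaving out 1 NC ULB sample at a time gave 26 to 48 genes lower against GOM and 7 to 13 against MAD (the fewest without replicate 7), and 36 to 53 bins lower against GOM and 19 to 44 against MAD (the fewest without replicate 5). HMCN1 against NC MAD no longer passed in 4 of the 5 such fits. The enhancer tables are pooled, so their depth per replicate is unknown here.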
